A study of Mus musculus with 9 samples.

Results

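The genes described here encode the enzymes that put acyl groups on histone lysines and take them off, with a few linked factors, in mouse spinal cord. They were chosen by symbol from a list of 34 names, and all 34 were among the 40879 gene symbols of the deposited tables and among the 18245 genes that passed the filter on low counts. The list holds 10 lysine acetyltransferases, 11 zinc-dependent histone deacetylases (HDACs), 7 sirtuins, the acyl-CoA enzyme Acss2, the lactylation-linked Aars2, the translation factor Gcn1 and the chromatin readers or remodelling factors Smarca4, Trim33 and Dpf2. RNA was sequenced from the spinal cord of male mice in 9 libraries, 3 from each group. The sham group is the control for surgery, the SNI group had spared nerve injury, which severs branches of the sciatic nerve and leaves another intact. The SNI+LDN193189 group had that injury and also received LDN193189, which blocks kinases of the BMP type I receptor family such as ACVR1. No genotype, strain, age, dose, time after injury, cord segment or vehicle stands in the labels. The study concerns lactylation of histones downstream of ACVR1 and glycolysis, which is why these enzymes are of interest. The extraction text in the labels speaks of cell lines although the source is given as spinal cord. RNA levels of these enzymes do not measure their activity or the marks on histones.

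Acetyltransferases move an acetyl group from acetyl-CoA to histone lysines, which loosens chromatin and recruits proteins with bromodomains. HDACs remove the group with a zinc ion, and sirtuins remove it while consuming NAD, so these enzymes tie chromatin to metabolism. Lysine lactylation uses a lactyl group instead. Ep300, Kat2a, Kat5, Kat7, Kat8 and Aars2 have been described as lactyl writers, Acss2 as a supplier of lactyl-CoA, Hdac1, Hdac2, Hdac3 and several sirtuins as erasers, and Smarca4, Trim33 and Dpf2 as readers of the mark. Class I HDACs are nuclear enzymes found in most cells, and class IIa HDACs shuttle between nucleus and cytoplasm and are regulated by calcium signals in neurons. In nerve tissue Sirt2 and Hdac11 are known as genes of oligodendrocytes.

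The libraries held 33432776 to 37190467 counts each. The columns of the tables carry the letters S, N and L, read as sham, SNI and SNI+LDN193189. Sprr1a, a gene of injured neurons, stood at 0.161 to 0.234 CPM (the count as a share of the library, scaled by normalization factors) in sham and at 6.62 to 23.0 in SNI, while in SNI+LDN193189 it stood at 6.38, 17.4 and 0.687, so replicate 3 of that group stood apart. Summed markers of neurons ran from 8503 to 10074 CPM and those of oligodendrocytes from 23534 to 27486 over the 9 libraries, and 6 of 8 Hox markers of the trunk cord had counts, Hoxa9 and Hoxd8 being listed at 0. In SNI+LDN193189 replicate 3 Hoxc10 stood at 46.5 CPM, against 63.5 to 81.1 elsewhere. Hoxc8 stood there at 66.9, against 30.3 to 54.7, while Hoxc6 and Hoxb8 lay within the range of the other libraries. Whether the libraries differ in cord level was not tested. Markers of nerve root (10 of 10 with counts) summed to 658 to 4827 CPM in sham, 201 to 675 in SNI and 578 to 1461 in SNI+LDN193189, with the highest sum in sham replicate 3. Skeletal muscle markers (6 of 6) summed to 545 CPM in sham replicate 1 and to at most 11.3 elsewhere. Microglial markers (7 of 8, P2ry12 being listed at 0) summed to 224 to 256 CPM in sham, 260 to 290 in SNI and 280 to 295 in SNI+LDN193189, so sham did not overlap with either injured group. The part of these other tissues and cells in the values below was not tested. In whole cord, fewer cells of a type and less RNA per cell cannot be told apart. The labels number the replicates as biosamples without naming animals, so the p-values reflect sample spread that may be technical.

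The sequences before the start sites of 5 HDAC genes show how far the promoters of this enzyme family differ. RefSeq start sites on GRCm38.p6 were matched for 29 of the 34 genes, in 40 windows, and the 250 bases before each start were read. The class IIa genes Hdac4, Hdac5, Hdac7 and Hdac9 are shown because all 4 had lower point estimates with LDN193189, and the class I gene Hdac2 as a contrast. CpG pairs, the sites of DNA methylation that cluster in promoters of widely expressed genes, are in capitals. Hdac4 is read on the minus strand at chr1:92180342-92180591, Hdac5 on the minus strand at chr11:102230173-102230422, Hdac7 on the minus strand at chr15:97844503-97844752, Hdac9 on the minus strand at chr12:34917096-34917345 and Hdac2 on the plus strand at chr10:36974294-36974543. None of these 5 windows overlaps an exon of its gene in GENCODE M21, and the Hdac4 window lies inside the annotated gene.
Hdac4: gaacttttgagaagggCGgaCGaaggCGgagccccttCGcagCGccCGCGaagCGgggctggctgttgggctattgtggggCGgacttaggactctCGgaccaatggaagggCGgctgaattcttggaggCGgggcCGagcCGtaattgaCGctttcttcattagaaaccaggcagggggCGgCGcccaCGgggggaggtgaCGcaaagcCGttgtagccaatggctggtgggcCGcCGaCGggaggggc
Hdac5: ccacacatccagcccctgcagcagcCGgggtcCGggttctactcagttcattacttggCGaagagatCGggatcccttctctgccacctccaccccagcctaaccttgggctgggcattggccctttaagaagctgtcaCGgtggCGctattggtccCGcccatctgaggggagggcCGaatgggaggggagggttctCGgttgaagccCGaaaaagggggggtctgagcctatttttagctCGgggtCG
Hdac7: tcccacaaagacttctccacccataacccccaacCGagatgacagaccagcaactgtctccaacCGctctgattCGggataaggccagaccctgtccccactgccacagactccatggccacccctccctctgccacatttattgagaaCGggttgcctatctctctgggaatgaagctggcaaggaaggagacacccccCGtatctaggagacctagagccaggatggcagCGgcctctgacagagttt
Hdac9: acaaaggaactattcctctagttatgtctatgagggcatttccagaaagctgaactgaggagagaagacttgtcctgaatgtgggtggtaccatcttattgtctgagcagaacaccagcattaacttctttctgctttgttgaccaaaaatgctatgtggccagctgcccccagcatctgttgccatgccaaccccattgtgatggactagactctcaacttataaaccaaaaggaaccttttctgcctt
Hdac2: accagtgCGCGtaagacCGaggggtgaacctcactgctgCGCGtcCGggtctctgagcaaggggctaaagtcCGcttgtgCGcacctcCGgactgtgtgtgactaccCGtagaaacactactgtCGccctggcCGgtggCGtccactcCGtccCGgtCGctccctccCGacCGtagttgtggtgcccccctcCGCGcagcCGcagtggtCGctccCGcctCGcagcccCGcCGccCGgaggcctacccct
The Hdac2 window holds 27 CpG pairs and the Hdac4 window 23, against 12 for Hdac5, 6 for Hdac7 and 0 for Hdac9. Hdac7 has 3 other RefSeq starts, with 5, 21 and 25 CpG pairs, and Hdac9 has another with 2. The observed CpG count over that expected from base composition had a median of 0.73 over the 40 windows and 0.64 over 17844 windows of the genes tested, and 23 of the 29 genes had a window above 0.6, against 8473 of 13887 genes tested with a window. Of the short motifs searched on both strands, GGGCGG (the GC box) was in 57.5% of the windows and in 50.4% of those of all tested genes, and CCAAT in 40.0 and 34.2%. GGCGCC, a GC-rich element of BMP-SMAD targets, was in 10 of the 40 windows and in 14.8% of those of all tested genes, and TATAAA in 4 and 7.59%. The NRF1 motif was in 3 windows and 6.20%, CACGTG (the E-box) in 3 and 7.37%, and TGACGTCA (the cyclic AMP element) in 0 and 2.21%. GGCGCC and GGGCGG hold CpG pairs, so their shares move with CpG content. A match in these windows is a description of letters and not of binding.

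Hdac11 and Sirt2 were the most abundant of these genes per length. On the deposited FPKM scale (the count scaled to library total and gene length) Hdac11, the only class IV deacetylase, which removes long fatty acyl groups, stood at 75.0 ± 2.84 and Sirt2, a mainly cytoplasmic deacetylase, at 68.0 ± 3.92 (mean ± SD, n = 9 libraries). Their ranges overlapped, 70.4 to 78.1 against 60.5 to 73.8. Hdac3, the catalytic subunit of the NCoR/SMRT corepressor complexes, came next at 39.0 ± 1.95 and did not overlap with either neighbour in the order. Hdac2 at 32.0 ± 1.11 and the mitochondrial deacetylase Sirt3 at 30.5 ± 1.96 overlapped with each other. Among acetyltransferases the highest FPKM was that of Hat1, which acetylates new histone H4 before it is built into chromatin, at 17.7 ± 0.984, followed by Kat2b at 16.2 ± 1.24, which overlapped with it, and by Kat7 at 16.02 ± 0.387, which overlapped with Kat2b and not with Hat1. Ep300 stood at 7.84 ± 0.294 and Crebbp at 5.93 ± 0.263, the pair of large coactivators that bind CREB and many other factors.

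The low end of that order rested in part on gene lengths. The lowest FPKM values belonged to Hdac4 (2.27), Hdac7 (1.75), Hdac9 (1.36), Kat6b (1.20) and Hdac8 (1.08), and the lengths that the FPKM table implies for them were 22.1, 15.98, 25.4, 37.9 and 17.1 kb. Their principal transcripts in GENCODE M21 measure 8.10, 4.22, 7.94, 6.98 and 1.94 kb. Scaled by principal transcript instead, an alternative chosen after seeing the data, Hdac8 stood at 9.51 CPM per kb and moved from place 34 to place 20, and Kat6b stood at 6.50 and moved from 33 to 27. Hdac7 moved from 31 to 25 and Hdac4 from 30 to 28, while Hdac9 went down from 32 to 33 and Hdac10 from 29 to 34. In all, 7 of the 34 genes had an implied length over 2 times the principal transcript, Sirt4 and Sirt5 being the others. Kat6a exceeded its partner Kat6b by 7.12 to 8.35 times in FPKM and by 1.43 times per principal transcript. Sirt2 stood above Hdac11 on that scale, at 97.9 and 78.0 CPM per kb. The length does not touch comparisons between groups, where it cancels.

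**Figure D1:**
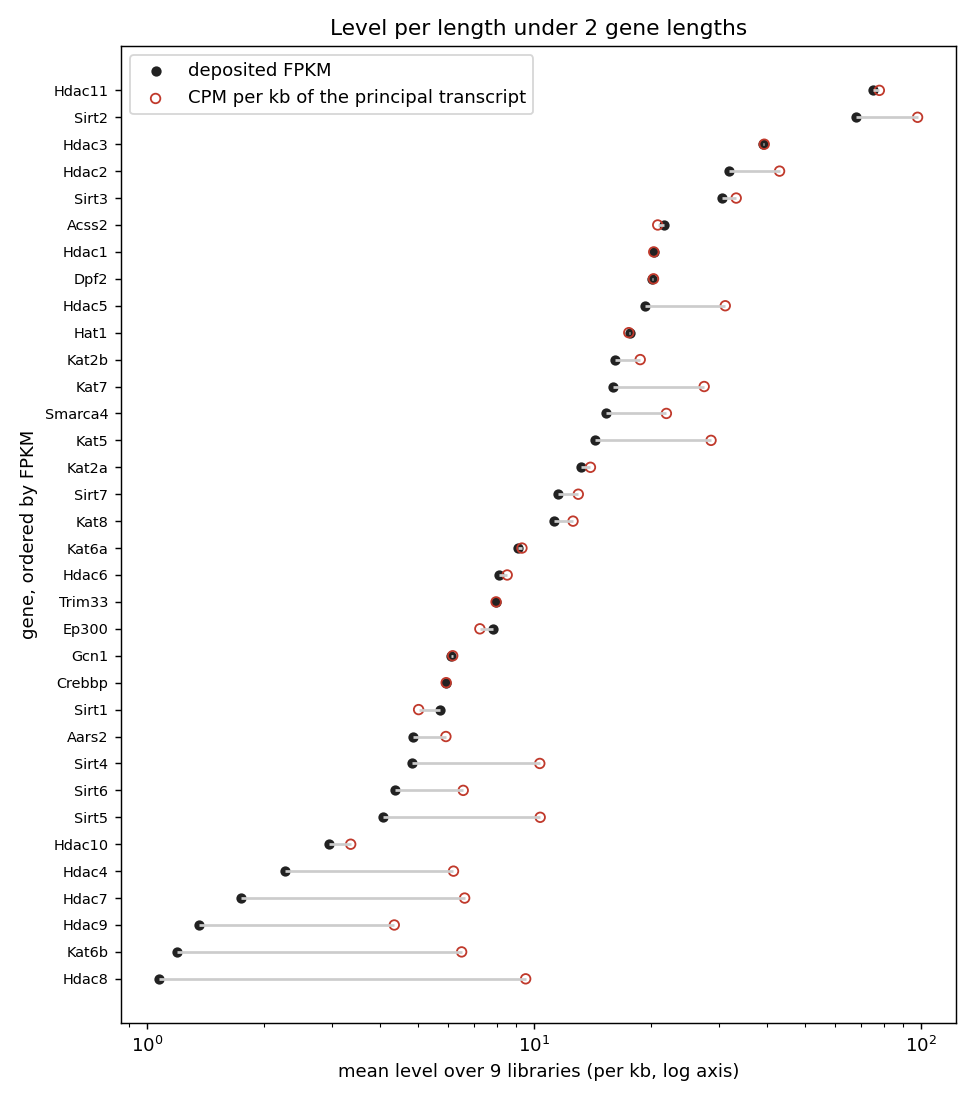
Mean level over the 9 libraries of each of the 34 genes on a log axis, per kilobase, as deposited FPKM (filled) and as CPM per kb of the GENCODE M21 principal transcript (open). Most pairs of points lie close together, while Hdac4, Hdac7, Hdac9, Kat6b and Hdac8 at the lower end and Sirt4 and Sirt5 lie over 2 times apart.

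No gene of the 34 passed the test in any comparison. At an adjusted p under 0.05 (edgeR quasi-likelihood test, Benjamini-Hochberg over all genes) 0 of 34 were called in SNI against sham, where 0% of the genes tested were called, 0 of 34 in SNI+LDN193189 against SNI (0.00548% of all genes) and 0 of 34 in SNI+LDN193189 against sham (0.0164%). DESeq2 and limma-voom also called 0 of the 34 in each, where DESeq2 called 22, 6 and 73 of all genes tested and limma-voom at most those numbers. At an unadjusted p under 0.05, Hdac4 alone was lower in SNI+LDN193189 than in SNI and 0 were higher, where 3.88% of all genes had such a p (1.69% higher, 2.19% lower). In SNI against sham 0 of the 34 had such a p, against 5.33% of all genes (2.02% higher, 3.31% lower). In SNI+LDN193189 against sham it was 0 of the 34, against 8.56% (4.07% higher, 4.49% lower). The joint test of the 3 groups called 0 of the 34 and 0.00548% of all genes, with 0 of the 34 and 5.94% of all genes at an unadjusted p under 0.05, and its lowest adjusted p among the 34 was 0.837, for Hdac4. In SNI against sham the lowest edgeR adjusted p over all genes tested was 0.620. Sprr1a, whose SNI libraries all lay above sham, was thus not called there either. A count of 0 in that comparison does not show that a gene was unchanged.

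The intervals give the size of change in whole-cord RNA that the fit left room for, given the spread among these libraries. The median log2 fold change of the 34 was 0.01 in SNI against sham (18 higher, 16 lower), -0.03 in SNI+LDN193189 against SNI (15 higher, 19 lower) and -0.02 in SNI+LDN193189 against sham (12 higher, 22 lower), beside medians of 0.00, -0.00 and -0.01 over all genes tested. Of all genes, 50.1% were higher and 49.9% lower in the first comparison, 49.8 and 50.2% in the next, and 48 and 52% in the last. The median standard error was 0.068 in each comparison for the 34 genes and 0.118 for all genes. The 95% interval lay wholly between 0.8-fold and 1.25-fold for 31 of 34 genes in SNI against sham, the exceptions being Hdac8, Hdac10 and Sirt5. It did so for 31 in SNI+LDN193189 against SNI (exceptions Hdac7, Sirt4 and Sirt6) and for 30 in SNI+LDN193189 against sham (exceptions Hdac8, Hdac7, Hdac10 and Sirt4). The intervals are per gene and were not widened for the number of genes. The counts behind them ran from 260 for Hdac10 to 8000 for Hdac11 in a library.

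**Figure D2:**
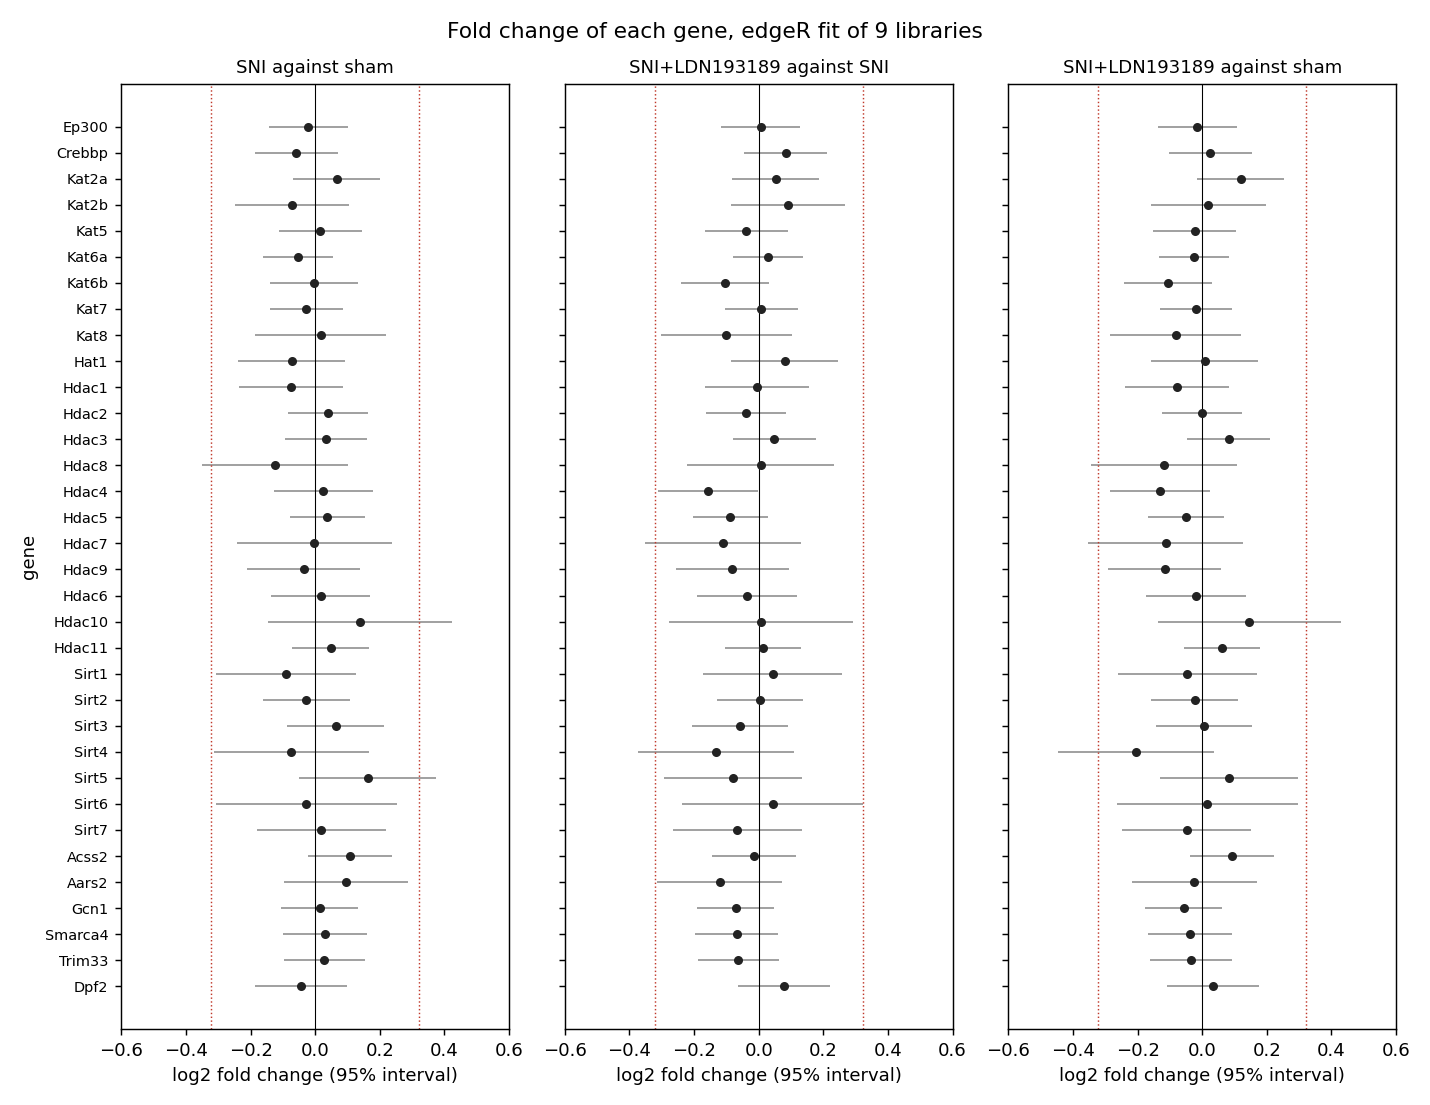
Log2 fold change of each gene (points) with its 95% interval (bars) in the 3 comparisons, from the edgeR fit of all 9 libraries, with dotted lines at 0.8-fold and 1.25-fold. The interval of Hdac4 in SNI+LDN193189 against SNI ends just below 0, all others cross 0, and most stay inside the dotted lines.

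Across the 9 libraries the highest level of a gene exceeded its lowest by a median of 1.18 times, from 1.08 for Kat6a to 1.45 for Hdac7. Over the 18029 genes tested with a count in every library that median was 1.36. No test of that difference was made, and genes with more counts have less counting error. Groups did not overlap for 1 of the 34 genes in SNI against sham (2.94%, against 8.87% of all genes), for 3 in SNI+LDN193189 against SNI (8.82%, against 11.3%) and for 1 in SNI+LDN193189 against sham (2.94%, against 13.1%). Those were Kat6a, lower in SNI than in sham as 4.43% of all genes were (4.45% higher), then Kat6b, Aars2 and Gcn1, lower with LDN193189 than in SNI as 5.56% were (5.71% higher). Kat2a was higher in SNI+LDN193189 than in sham, as 6.82% of all genes were (6.31% lower).

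**Figure D3:**
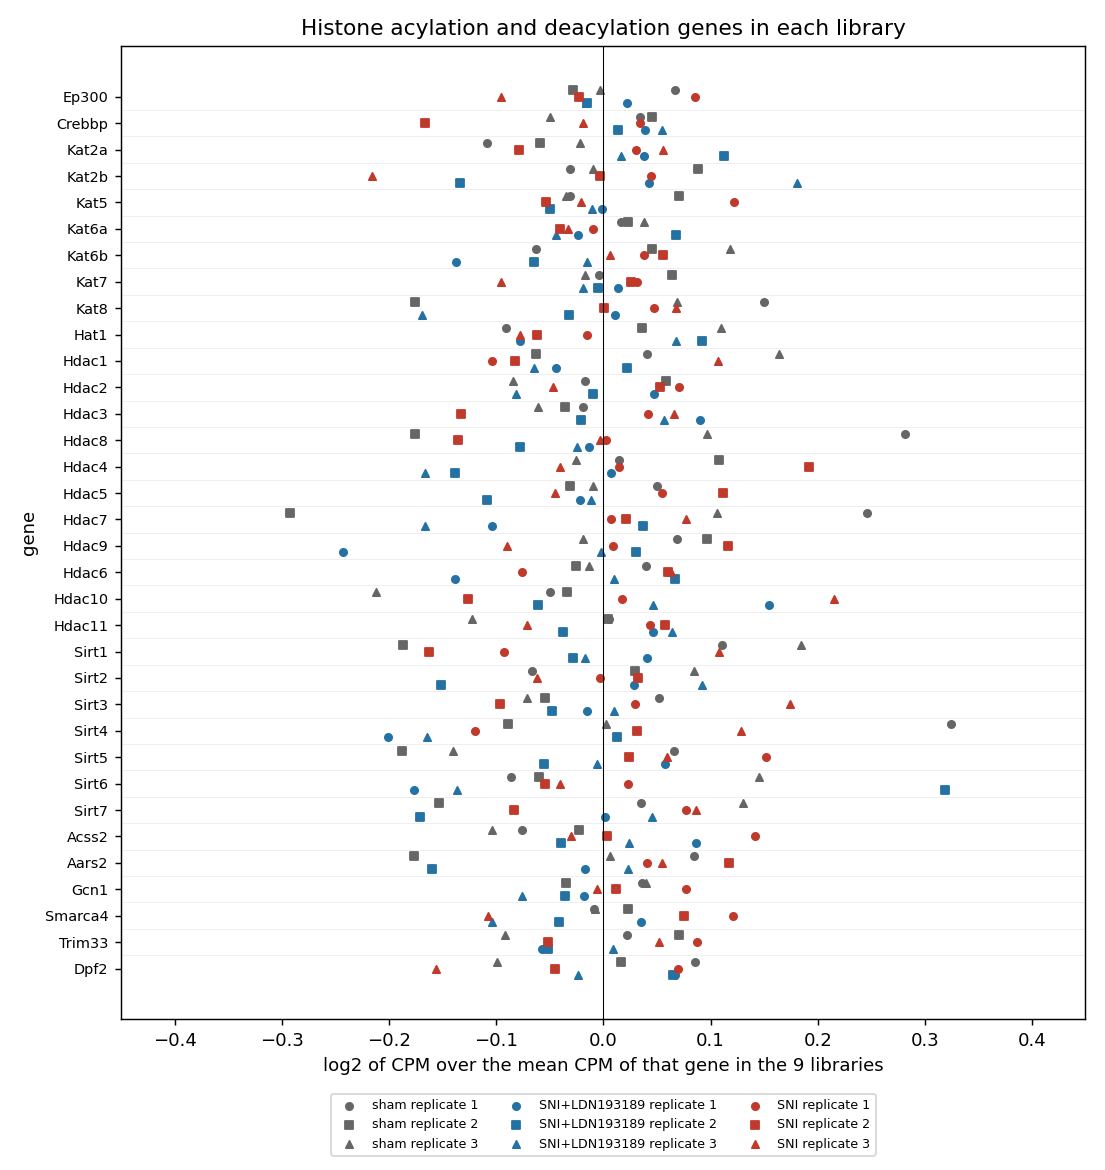
Level of each gene in each library as log2 of its CPM over the mean of that gene (x axis), with genes in rows, groups by colour and replicates by symbol. The 3 colours are mixed in nearly every row, and the widest rows include those of Hdac7, Sirt4, Sirt6 and Hdac8.

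Among acetyltransferases Kat2a (GCN5, the catalytic subunit of the SAGA coactivator) stood at 39.5, 40.9 and 42.0 CPM in sham replicates 1, 2 and 3, at 43.5, 40.3 and 44.3 in SNI and at 43.7, 46.0 and 43.1 in SNI+LDN193189. All SNI+LDN193189 libraries lay above all sham libraries, and SNI overlapped with both. The log2 fold change was 0.12 (SE 0.063) in SNI+LDN193189 against sham with an adjusted p of 0.622, and 0.07 (SE 0.063) in SNI against sham with an adjusted p of 0.960. The latter was 0.04 without sham replicate 1 or SNI replicate 3, and 0.10 without SNI replicate 2. The comparisons with sham share the sham libraries, so these values are not independent. Kat2a lies on chromosome 11 at 100704746 to 100712465 in GRCm38.

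Kat6b, the catalytic subunit of a complex that acetylates histone H3, stood at 43.4, 46.8 and 49.2 CPM in sham, at 46.5, 47.1 and 45.5 in SNI and at 41.2, 43.4 and 44.9 in SNI+LDN193189. The treated libraries all lay below the SNI libraries and overlapped with sham. Its log2 fold change was -0.11 (SE 0.064) against SNI, adjusted p = 1.00, and -0.11 (SE 0.064) against sham, adjusted p = 0.658. The value against sham was -0.07 without sham replicate 3. Kat6a, its partner gene, stood at 85.7, 86.1 and 87.0 CPM in sham, 84.2, 82.4 and 82.9 in SNI and 83.4, 88.9 and 82.2 in SNI+LDN193189. Sham and SNI did not overlap, by a small distance (log2 fold change -0.05, SE 0.051, adjusted p = 0.960).

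Crebbp stood at 65.7, 66.2 and 62.0 CPM in sham, 65.7, 57.1 and 63.3 in SNI and 65.9, 64.7 and 66.6 in SNI+LDN193189, so the lowest value was in SNI replicate 2 and the groups overlapped. The log2 fold change against SNI was 0.08 (SE 0.061, adjusted p = 1.00), 0.03 without SNI replicate 2 and 0.13 without SNI replicate 1. Ep300, the best known writer of histone lactylation, stood at 69.9 ± 2.41 CPM in sham, 68.9 ± 4.36 in SNI and 69.1 ± 1.05 in SNI+LDN193189. Its 95% interval ran from -0.14 to 0.10 on the log2 scale in SNI against sham and from -0.12 to 0.13 in SNI+LDN193189 against SNI. The MYST family members Kat5 (of the NuA4/TIP60 complex), Kat7 (HBO1) and Kat8 (MOF), together with Kat2b and Hat1, had log2 fold changes from -0.10 to 0.09 over the 3 comparisons. Kat2b stood at 75.3 to 90.2 CPM in SNI and 79.7 to 99.2 in SNI+LDN193189.

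Of the class I HDACs, Hdac1, Hdac2 and Hdac3 encode catalytic subunits of the Sin3, NuRD, CoREST and NCoR/SMRT complexes. The 4 genes of the class, with Hdac8, had log2 fold changes from -0.12 to 0.04 in SNI against sham, and 0 of 4 passed in any comparison. Hdac1 stood at 43.0 ± 3.40 CPM in sham, 40.9 ± 3.35 in SNI and 40.7 ± 1.29 in SNI+LDN193189. Hdac2, its close partner, stood at 85.6 ± 4.25, 87.9 ± 3.82 and 85.5 ± 3.83. Hdac2 exceeded Hdac1 in all 9 libraries, by 1.32 to 1.77 times in FPKM. Hdac3 stood at 77.8 ± 1.13 CPM in sham, 79.6 ± 5.85 in SNI and 82.3 ± 3.23 in SNI+LDN193189. Hdac8, an X-linked class I enzyme that also deacetylates cohesin, stood at 22.4, 16.3 and 19.7 CPM in sham, 18.4, 16.8 and 18.4 in SNI and 18.2, 17.4 and 18.1 in SNI+LDN193189. Sham held both its highest and its lowest library. The log2 fold change in SNI against sham was -0.12 (SE 0.107, adjusted p = 0.955), -0.01 without sham replicate 1 and -0.24 without sham replicate 2.

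Class IIa HDACs, which have little catalytic activity of their own and repress MEF2 targets, were lower in SNI+LDN193189 than in SNI by point estimate in 4 of 4, with a median log2 fold change of -0.10, where 50.2% of all genes were lower. The value of Hdac9 was -0.08, and -0.00083 without treated replicate 1, so its direction hung on that library. This pattern was noticed in these data and not tested, and 0 of 4 passed. Hdac4 stood at 50.6, 54.1 and 49.3 CPM in sham, 50.7, 57.3 and 48.8 in SNI and 50.4, 45.6 and 44.7 in SNI+LDN193189. Treated replicates 2 and 3 lay below all other libraries, and replicate 1 lay within the SNI range. The log2 fold change against SNI was -0.16 (SE 0.073) with an unadjusted p of 0.0473 and an adjusted p of 1.00. With DESeq2 the unadjusted p was 0.0600. Leaving out 1 library moved the log2 fold change from -0.21 (without treated replicate 1) to -0.08 (without SNI replicate 2), and without treated replicate 3 it was -0.12. Against sham it was -0.13 (SE 0.073, adjusted p = 0.639). Hdac4 lies on chromosome 1 at 91928779 to 92195699 in GRCm38.

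Hdac5, the most abundant of the class in CPM per kb and in FPKM, stood at 122, 116 and 117 CPM in sham, 123, 128 and 114 in SNI and 116, 110 and 117 in SNI+LDN193189. The groups overlapped, and the log2 fold change against SNI was -0.09 (SE 0.055, adjusted p = 1.00), or -0.05 without SNI replicate 2 and -0.06 without treated replicate 2. Hdac9 stood at 36.3, 36.96 and 34.1 CPM in sham, 34.8, 37.5 and 32.5 in SNI and 29.2, 35.3 and 34.5 in SNI+LDN193189. Treated replicate 1 was the lowest of the 9, and without it the log2 fold change against sham went from -0.12 (SE 0.083, adjusted p = 0.717) to -0.04.

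Hdac7, known from endothelium and thymus, stood at 33.1, 22.8 and 30.1 CPM in sham, 28.1, 28.4 and 29.5 in SNI and 26.0, 28.7 and 24.9 in SNI+LDN193189, and is given here after its values were seen. Sham replicates 1 and 2 were the highest and the lowest of the 9 libraries. Its log2 fold change in SNI+LDN193189 against sham was -0.11 (SE 0.112, adjusted p = 0.799). Without sham replicate 1 it was 0.00, and without sham replicate 2 it was -0.25 with an adjusted p of 0.229. Summed endothelial markers (6 of 6 with counts) stood at 341, 298 and 369 CPM in sham, 346, 312 and 343 in SNI and 301, 330 and 295 in SNI+LDN193189. The orders matched in part: sham replicate 2 was the lowest sham library and treated replicate 2 the highest treated library in both. They differed in SNI, where replicate 1 had the lowest Hdac7 and the highest sum, and in sham, where Hdac7 was highest in replicate 1 and the sum in replicate 3. The part of vessel content in the Hdac7 values was not tested.

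**Figure D4:**
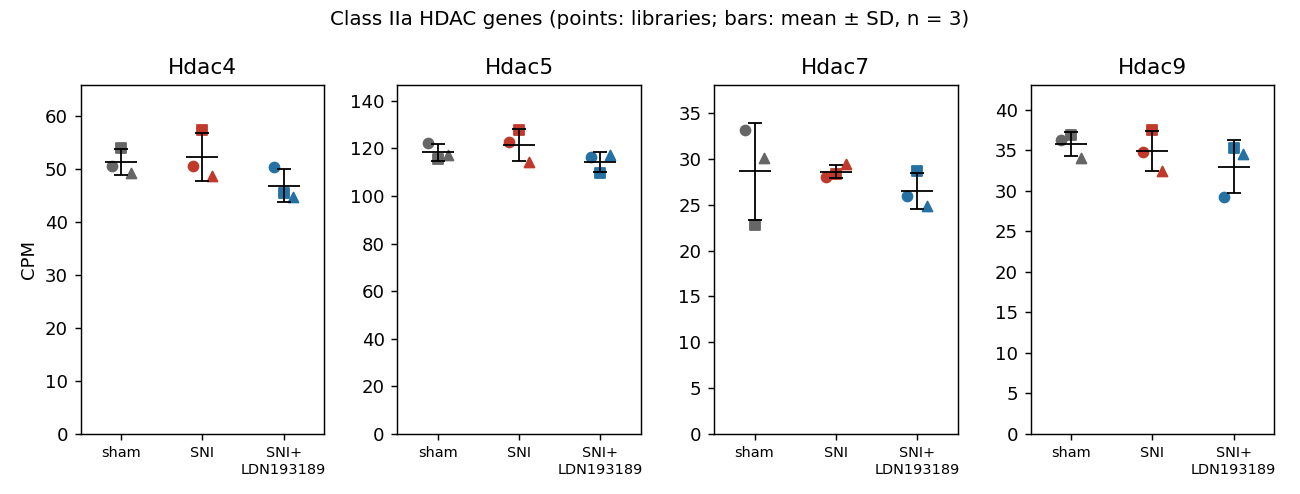
CPM of the 4 class IIa HDAC genes in each library (points, symbols for replicates 1, 2 and 3) by group, with mean ± SD (n = 3) as bars and axes from 0. The group means lie close together beside the spread, the lower Hdac4 level rests on treated replicates 2 and 3, and Hdac7 spreads widest in sham, from 22.8 to 33.1.

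Of the other HDACs, Hdac6, the tubulin deacetylase of the cytoplasm, stood at 35.3 ± 0.858 CPM in sham, 35.7 ± 1.94 in SNI and 34.9 ± 2.53 in SNI+LDN193189. Hdac10, a polyamine deacetylase and the least abundant of the 34 in CPM, stood at 7.58 ± 0.508, 8.34 ± 0.999 and 8.38 ± 0.628. Its intervals were the widest upward, reaching 0.42 in SNI against sham and 0.43 in SNI+LDN193189 against sham on the log2 scale. Hdac11 stood at 208, 207 and 190 CPM in sham, 213, 215 and 197 in SNI and 214, 202 and 216 in SNI+LDN193189. The groups overlapped, with the lowest value in sham replicate 3.

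Among sirtuins 0 of 7 passed in any comparison. Sirt4, a mitochondrial enzyme that restrains glutamine use, stood at 23.2, 17.4 and 18.6 CPM in sham, 17.1, 19.0 and 20.3 in SNI and 16.1, 18.7 and 16.6 in SNI+LDN193189. Sham replicate 1 stood above the other 8 libraries. The log2 fold change in SNI+LDN193189 against sham, -0.21 (SE 0.114, adjusted p = 0.639), was the largest in size of all 34 genes in the 3 comparisons. It was -0.07 without sham replicate 1 and -0.29 without sham replicate 2.

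Sirt5, the mitochondrial enzyme that removes succinyl, malonyl and glutaryl groups, stood at 15.2, 12.7 and 13.2 CPM in sham, 16.1, 14.7 and 15.1 in SNI and 15.1, 13.9 and 14.4 in SNI+LDN193189. The SNI libraries overlapped with sham through sham replicate 1, and the log2 fold change of 0.16 (SE 0.1002) in SNI against sham had an adjusted p of 0.941. Sirt1, a nuclear deacetylase of histones and transcription factors, stood at 23.0 ± 3.02 CPM in sham, 21.6 ± 2.15 in SNI and 22.3 ± 0.571 in SNI+LDN193189. Sirt3 stood at 47.8 ± 2.25, 50.0 ± 4.72 and 48.0 ± 0.960. Sirt6, a chromatin-bound repressor of glycolytic genes, held 10.97, 15.5 and 11.3 CPM in SNI+LDN193189, so that replicate 2 stood above the other 8 libraries, and 11.7 to 13.7 elsewhere. Sirt7, of the nucleolus, stood at 20.2 to 24.6 CPM in sham and 19.9 to 23.2 in SNI+LDN193189.

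Sirt2 stood at 172, 184 and 191 CPM in sham, 180, 184 and 173 in SNI and 184, 162 and 192 in SNI+LDN193189. The lowest and the highest of the 9 libraries were both treated ones. Summed oligodendrocyte markers (8 of 8 with counts) stood at 23857, 25820 and 23742 CPM in sham, 27156, 26652 and 23534 in SNI and 26033, 25156 and 27486 in SNI+LDN193189. The library with the most Sirt2 had the highest sum, while sham replicate 3, next in Sirt2, had one of the lowest. The 95% interval of the log2 fold change was -0.16 to 0.11 in SNI against sham and -0.13 to 0.14 in SNI+LDN193189 against SNI.

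Acss2, which makes acetyl-CoA from acetate in cytoplasm and nucleus, stood at 58.0, 60.2 and 56.9 CPM in sham, 67.5, 61.3 and 59.9 in SNI and 64.9, 59.5 and 62.2 in SNI+LDN193189. The highest value was in SNI replicate 1, and the lowest of each injured group lay inside the sham range. It had the smallest p of the 34 in SNI against sham, 0.0995 unadjusted, with a log2 fold change of 0.11 (SE 0.061) and an adjusted p of 0.941. Without SNI replicate 1 the log2 fold change was 0.05. In SNI+LDN193189 against sham it was 0.09 (SE 0.061, adjusted p = 0.699), or 0.06 without treated replicate 1, and Acss2 overlaps the protein-coding genes Ggt7 and Gss on the other strand.

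Aars2, the mitochondrial alanyl-tRNA synthetase, stood at 21.01, 17.5 and 19.9 CPM in sham, 20.4, 21.5 and 20.6 in SNI and 19.6, 17.7 and 20.1 in SNI+LDN193189. The treated libraries all lay below those of SNI, and sham overlapped with both. The log2 fold change was 0.10 (SE 0.091, adjusted p = 0.960) in SNI against sham and -0.12 (SE 0.091, adjusted p = 1.00) in SNI+LDN193189 against SNI. The SNI libraries enter both comparisons, on opposite sides. Without sham replicate 2 the former was 0.03 and without sham replicate 1 it was 0.15, and without treated replicate 2 the latter was -0.07.

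Gcn1 encodes a ribosome-bound activator of the stress kinase GCN2 and is a different gene from GCN5 (Kat2a). It stood at 54.1, 51.4 and 54.2 CPM in sham, 55.6, 53.2 and 52.5 in SNI and 52.0, 51.4 and 50.0 in SNI+LDN193189. The treated libraries lay below those of SNI, with a log2 fold change of -0.07 (SE 0.056, adjusted p = 1.00), or -0.05 without SNI replicate 1.

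The readers stayed within narrow ranges. Smarca4, the ATPase BRG1 of the SWI/SNF remodelling complex, stood at 140 ± 1.78 CPM in sham, 143 ± 11.8 in SNI and 136 ± 6.58 in SNI+LDN193189. Trim33, a bromodomain ubiquitin ligase, stood at 70.9 ± 4.05, 72.3 ± 3.60 and 69.2 ± 1.79. Dpf2, a SWI/SNF subunit with a double PHD finger, stood at 67.6 ± 4.35, 65.5 ± 5.13 and 69.1 ± 2.46. Their log2 fold changes ran from -0.07 to 0.08 over the 3 comparisons, and 0 of 3 passed in each.

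Summed by class on the deposited FPKM scale, the acetyltransferase and HDAC genes kept a similar ratio in the 3 groups. The HDAC sum includes Hdac11 (mean 75.0 FPKM), Hdac6 and Hdac10, described above by substrates other than histones, so it is not a sum of histone erasers alone. The 10 acetyltransferases summed to 112 to 117 FPKM in sham, 110 to 114 in SNI and 112 to 114 in SNI+LDN193189, and the 11 HDACs to 199 to 207, 204 to 205 and 197 to 208. The ratio of HDAC to acetyltransferase sums was 1.83, 1.77 and 1.72 in sham, 1.79, 1.86 and 1.86 in SNI and 1.84, 1.76 and 1.80 in SNI+LDN193189. The groups overlapped in this ratio. Per kb of principal transcript it was 1.63 to 1.74 in sham, 1.67 to 1.75 in SNI and 1.66 to 1.72 in SNI+LDN193189, again with overlap. The 7 sirtuins summed to 124 to 137, 127 to 134 and 119 to 133 FPKM.

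The partners of these enzymes gave the same count of calls. Of 44 tested subunits of acetyltransferase complexes, 34 of HDAC complexes, 38 other acyl-lysine readers and 32 genes of acyl-CoA supply and lactyl-linked metabolism, 0 passed in any comparison. In SNI against sham the median log2 fold changes of these lists were -0.02, -0.00, -0.03 and 0.05, and in SNI+LDN193189 against SNI 0.01, 0.03, -0.02 and 0.03. Rcor1, a scaffold of the CoREST complex of Hdac1 and Hdac2, had a mean level of 27.0 ± 2.69 CPM in SNI against 31.9 ± 2.54 in sham (log2 fold change -0.24, SE 0.090, adjusted p = 0.927). Chd3, a NuRD remodeller, stood at 293 ± 15.7 CPM in SNI+LDN193189 and 331 ± 17.2 in SNI (log2 fold change -0.17, SE 0.065, adjusted p = 1.00). Sap30, a Sin3 subunit of low level, stood at 3.85 ± 0.680 and 2.55 ± 0.611 (log2 fold change 0.60, SE 0.213, adjusted p = 1.00). Mllt3 (AF9), a YEATS reader of acetyl and crotonyl lysine, stood at 35.5 ± 3.30 CPM in SNI+LDN193189, 36.2 ± 2.44 in SNI and 41.8 ± 4.07 in sham. Its log2 fold change against sham was -0.23 (SE 0.087, adjusted p = 0.547) in SNI+LDN193189 and -0.21 (SE 0.087, adjusted p = 0.927) in SNI.

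The acyl-CoA list had 25 of 32 genes higher for injury against sham, 25 for treatment against injury and 24 for treatment against sham. Of all genes 50.1, 49.8 and 48% were higher. In that order, the other readers had 26, 26 and 30 of 38 genes lower, where 49.9, 50.2 and 52% of all genes were. Without sham replicate 1 the readers had 19 lower and 19 higher for injury against sham, and 24 lower for treatment against sham. The acyl-CoA list then had 23 higher in both. These comparisons share libraries in pairs. In SNI against sham 0 genes of the acyl-CoA list were higher and 1 was lower at an unadjusted p under 0.05, where 2.02 and 3.31% of all genes were. The lower gene was Acss3, at 10.9 ± 1.46 CPM against 13.3 ± 1.51 (log2 fold change -0.29, SE 0.129, adjusted p = 0.927). In SNI+LDN193189 against sham the acyl-CoA list had a median of 0.08, and 6 of 32 genes were higher at an unadjusted p under 0.05, where 4.07% of all genes were. The 6 were Cpt2, Acox3, Suclg2, Ldhb, Dlat and Cs. Cpt2, of mitochondrial fatty acid import, stood at 17.0 ± 1.43 CPM against 13.7 ± 0.545 (log2 fold change 0.31, SE 0.101, adjusted p = 0.495), and Dlat, a pyruvate dehydrogenase subunit, at 156 ± 2.98 against 141 ± 7.48 (0.15, SE 0.051, adjusted p = 0.515). The count of 6 was 3 without sham replicate 1, 13 without sham replicate 2, 4 without sham replicate 3, 2 without treated replicate 2 and 3 without treated replicate 3. The 4.07% belongs to the fit of all 9 libraries, and the share of all genes in these refits is not given here. These counts therefore show only that the number moved with single libraries. Nerve root markers were highest in sham replicate 3 and their part in these values was not tested.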

How the data were processed

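RNA-seq of mouse spinal cord comprised 9 libraries, 3 per group. Per the labels' protocols, poly(A) RNA went into libraries that keep strand, sequenced from both ends at 150 bp. The deposited counts are whole-number read counts per gene symbol, and the deposited FPKM values are those counts scaled to library total and gene length, with 1 fixed length per gene in all 26285 genes with a count (relative tolerance 1e-09). The submitters' processing notes name mm10, and the aligner, the counter, its strand setting and the annotation are not given in the sources used here. Between 70.7 and 71.8% of the counts above 0 were even, and the cause was not tested. The 34 genes and all lists were chosen with earlier results of these data known.

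Counts were fitted for all 9 libraries together with the edgeR 4.0.16 quasi-likelihood test (robust, filterByExpr, TMM factors 0.984 to 1.02) in R 4.3.3, and p-values were adjusted by Benjamini-Hochberg over 18245 genes and called under 0.05. CPM used the same factors. Intervals of 95% used the standard error and degrees of freedom of each gene's test. Fold changes are given singly for the 6 genes with the smallest p in each comparison and, chosen after their values were seen, for Hdac7 and for Hdac9 against SNI, levels for all 34, and up to 2 genes with the smallest p from each of 4 other lists. Alternatives were DESeq2 1.42.0, limma 3.58.1 (voom with sample weights, and log2(FPKM + 0.1) or log2(FPKM + 1)), other scalings and filters, separate fits, a replicate block and leaving out each library. The fit was tested on simulated data. Loci come from GENCODE M21 (GRCm38) and promoters from RefSeq. Python 3.11.15, numpy 2.4.6 and pandas 2.3.3 made tables and figures.

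Of the 34 genes, 6 overlap a protein-coding gene on the other strand and Sirt7 overlaps Mafg on the same strand, so reads of Kat5, Kat8, Hdac7, Sirt2, Sirt3, Acss2 and Sirt7 could be shared with neighbours. Replicates of a group differed by more than counting noise (chi-square per degree of freedom 5.22 to 31.9), so none was counted as 1 library deposited again. That does not show separate animals.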

Additional observations from a re-analysis of the deposited data

How the results depend on the processing

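The count of 0 among the 34 genes held in the 3 comparisons and the joint test under each alternative run. The 18 fold changes with the smallest p (6 per comparison) kept their direction and stayed uncalled in all 342 refits. They were picked by p in these data and the refits reuse the same libraries, so a kept direction was likely beforehand and is no support. Leaving out 1 library moved the fold changes of Kat2a, Kat6b, Crebbp, Hdac8, Hdac4, Hdac5, Hdac9, Sirt4, Acss2, Aars2 and Gcn1 by over 1.5 times in at least 1 comparison, as given beside each. On log2(FPKM + 1), which understates low genes, Hdac8 in SNI against sham was -0.07, and Kat6b -0.06 against SNI and -0.07 against sham. Hdac7 in SNI+LDN193189 against sham, outside the 18, went from -0.11 to 0.00076 without sham replicate 1. Counts over all genes were less stable. DESeq2 gave 22 for SNI against sham, 6 for SNI+LDN193189 against SNI, 73 for SNI+LDN193189 against sham and 75 in the joint test, against 0, 1, 3 and 1 with edgeR. With no filter on low counts they were 2 in SNI+LDN193189 against SNI, 30 in SNI+LDN193189 against sham and 25 in the joint test. In SNI+LDN193189 against SNI the count was 3 with only the groups compared, 2 with limma-voom and 0 on either FPKM scale. In SNI+LDN193189 against sham it was 1 on either FPKM scale, and the joint test called 0 on log2(FPKM + 1). Leaving out 1 library gave 0 to 38 in SNI against sham (38 without sham replicate 1), 0 to 2 in SNI+LDN193189 against SNI, 1 to 17 in SNI+LDN193189 against sham (17 without SNI replicate 3) and 1 to 19 in the joint test (19 without sham replicate 1). Same-numbered libraries did not deviate together (correlations -0.11 to 0.14, against -0.18 to 0.13 for different numbers), so the numbers were not taken as pairs. The replicate block gave 0 genes in SNI+LDN193189 against SNI and 5 in the joint test, and 0 of the 34. Hdac10 had the fewest counts, and its intervals did not stay within 0.8 to 1.25-fold against sham.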
